A study of Arabidopsis thaliana with 8 samples.

Results

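Very-long-chain fatty acid elongation is the subject of this account, in whole Arabidopsis thaliana seedlings that overexpress WIN1. The genes were chosen by annotation, as 31 loci: 21 KCS genes for the condensing enzymes, KCR1, KCR2, PAS2 and its homolog AT5G59770, CER10, CER2 with its relatives CER26 and CER26-LIKE, and the carboxylase genes ACC1 and ACC2. Each of the 31 had 1 probe, out of 25665 loci that probes name, and 27 of the 31 entered the test among 20442 genes. The 4 that did not, KCS7, KCS15, FAE1 and KCS21, were not well above background on any array.

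The tested line carried the construct 35S:WIN1:NOS in the Columbia-0 ecotype. In it the strong viral 35S promoter, active in most plant cells, drives WIN1, which encodes an AP2/ERF transcription factor that promotes cuticle lipid synthesis. The other group was labelled vector control in the titles and wild type in the genotype field, also in Columbia-0. Seedlings of both groups were 2 weeks old and grew on MS agar with sucrose under long days, and 4 samples of each group were hybridised, each to its own 1-colour Agilent array. Each sample held RNA from several seedlings of a plate with many, per the sample descriptions. The labels name neither the transgenic line nor separate plates, so p-values cover only how much these samples varied, and that variation may be technical.

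Plants lengthen plastid-made acyl chains at the endoplasmic reticulum in a cycle. Cytosolic acetyl-CoA carboxylase supplies malonyl-CoA, a KCS enzyme condenses it with an acyl-CoA, and a ketoacyl reductase, a hydroxyacyl dehydratase and an enoyl reductase complete the round. The KCS enzyme sets which chains are lengthened, while the other activities are shared by all chains. The products go into cuticular wax in the shoot epidermis, suberin in root barriers, sphingolipids in every cell and storage oil in seeds.

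Values are log2 of the processed signal minus the array's 75th percentile over non-control spots, called the scaled signal below. A gene was called where limma's Benjamini-Hochberg adjusted p over all genes tested was under 0.05. The 75th percentile itself was 997 to 2490 signal units on the 35S:WIN1 arrays and 1790 to 2354 on the vector control arrays. The share of probes well above background was 58.9% to 65.4% over the 8 arrays. WIN1 stood at 3.85 to 5.62 on the 35S:WIN1 arrays, against -9.32 to -6.07 on the vector control arrays, where 1 of 4 was above background. Each group occupied a slide of its own, so the effect of slide and that of genotype cannot be told apart. Spike-in RNAs, scaled in the same way, had array medians of 2.78 to 4.39 on the 35S:WIN1 arrays and 1.56 to 2.78 on the vector control arrays.

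Elongation genes moved in both directions in 35S:WIN1 seedlings. KCS2, KCS1, KCS12, KCS3, CER6, KCS20 and CER2 rose, and KCS16, KCS8, KCR2, KCS19, KCS17, CER26 and AT5G59770 fell. That is 7 of 27 higher, where 15.1% of all genes tested were higher, and 7 of 27 lower, where 20.2% of all genes were lower. Together 14 members, or 51.9% of those tested, were called, against 35.3% of all genes. The 4 arrays of one group all lay beyond the 4 of the other for 15 of the 27, and for 35.3% of all genes. Changes of at least 2-fold were found for 5 members higher and 5 lower, where 7.73% and 7.47% of all genes were. The median log2 difference of the 27 was 0.07, beside -0.04 for all genes. The members' median absolute log2 difference was 0.82, beside 0.35 for all genes. In whole seedlings a lower signal from fewer cells of a type and one from less RNA per cell cannot be told apart.

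**Figure D1:**
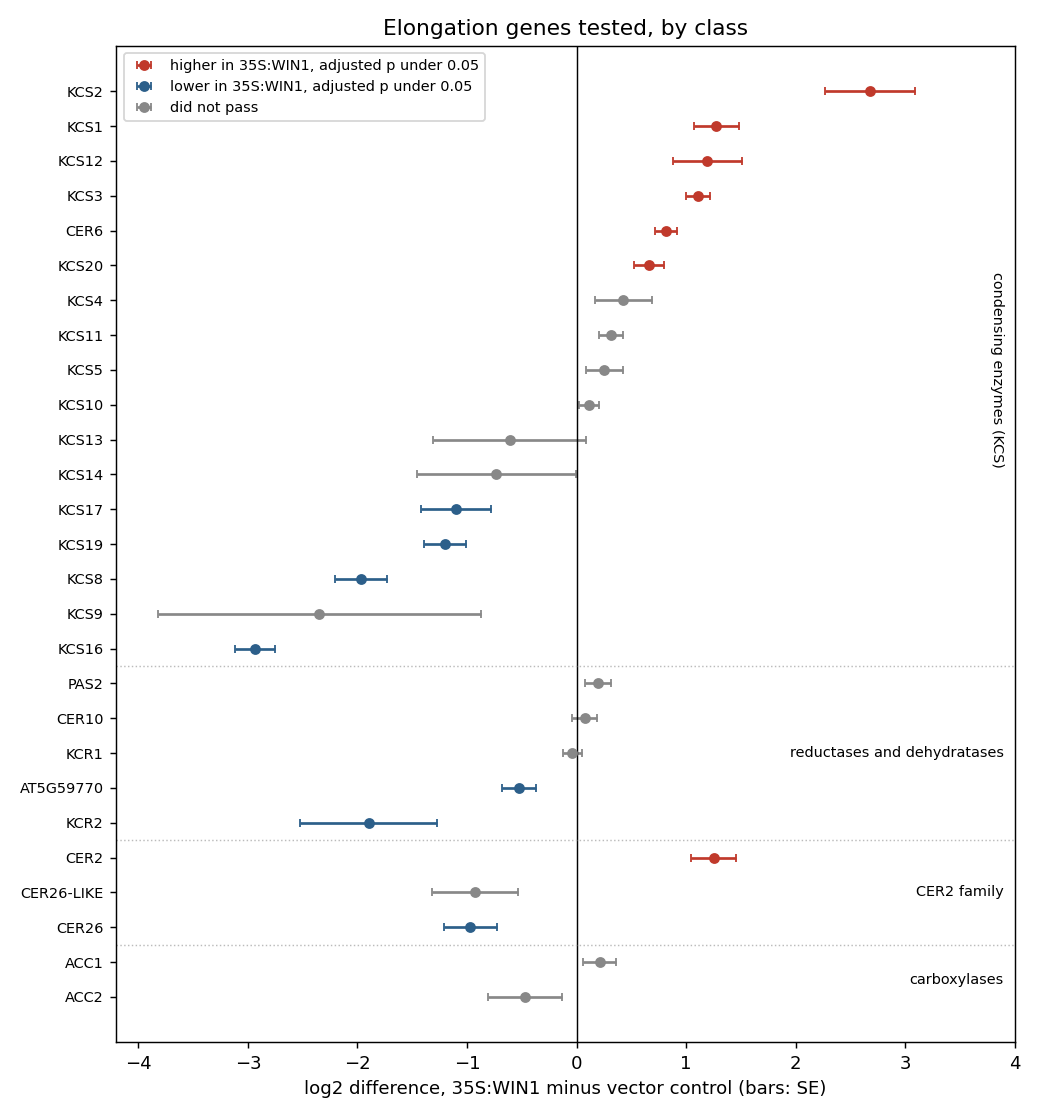
Log2 difference of the scaled signal, 35S:WIN1 minus vector control, for the 27 elongation genes tested, with bars of 1 SE, grouped by enzyme class (4 arrays per group). Condensing-enzyme genes spread from -2.93 to 2.68, while KCR1, CER10 and PAS2 lie close to 0.

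These directions hold relative to the 75th percentile. With the spike-in RNAs as the scale, every difference shifts by the same amount, the median of all genes becomes -1.68, no member is called higher and 20 are called lower. On that scale CER6, KCS1, KCS3, KCS12, KCS20 and CER2 lie below 0, and KCS2 remains above 0 without passing (adjusted p = 0.0670). With the deposited table left unscaled, 1 member is higher, KCS2, and 5 are lower. The data do not decide between these scales. Ratios between members on the same array, given further on, do not depend on this choice.

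Condensing enzymes known from wax synthesis were among those that rose. CER6 (AT1G68530), the main condensing enzyme of stem wax synthesis, had scaled signals of 4.39, 4.42, 4.38 and 4.64 on the 35S:WIN1 arrays, against 3.55, 3.64, 3.66 and 3.72 on the vector control arrays. The groups did not overlap, and CER6 was 1.76-fold higher (log2 difference 0.82, SE 0.10, adjusted p = 7.89e-04). KCS3 (AT1G07720), described as a protein that binds CER6 and dampens its activity, had scaled signals of 1.86, 1.77, 1.92 and 2.01 in 35S:WIN1, against 0.70, 0.83, 0.62 and 0.97 in vector control. It was 2.16-fold higher (SE 0.11 on the log2 scale, adjusted p = 3.35e-04), with little spread in either group. KCS12 (AT2G28630) had scaled signals of 2.72, 2.20, 2.11 and 2.99 in 35S:WIN1, against 1.56, 1.74, 1.45 and 0.48 in vector control. The lowest of these was vector control replicate 4. The difference of 1.20 (SE 0.31, adjusted p = 0.0195) was of similar size but no longer past the threshold once 35S:WIN1 replicate 1 was left out (1.12, SE 0.35, adjusted p = 0.0539). Of 21 alternative settings run, 16 kept the call of KCS12.

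KCS5 (AT1G25450), also called CER60, is the closest relative of CER6 and acts in wax synthesis too. Its scaled signals were 3.49, 3.57, 3.32 and 3.35 in 35S:WIN1, against 2.99, 2.81, 3.37 and 3.53 in vector control. The groups overlapped and KCS5 did not pass (log2 difference 0.25, SE 0.17, adjusted p = 0.276). KCS10 (AT2G26250), also called FIDDLEHEAD, whose loss fuses shoot organs, ran from 2.97 to 3.08 in 35S:WIN1 and from 2.76 to 2.98 in vector control. Its difference of 0.11 (SE 0.09) did not pass either (adjusted p = 0.366).

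KCS2, KCS20 and KCS1 were higher as well. KCS2 (AT1G04220), also called DAISY, acts with KCS20 in both wax and suberin synthesis. KCS2 had scaled signals of 1.85, 1.57, 1.14 and 0.38 in 35S:WIN1, against -2.47, -1.01, -1.11 and -1.19 in vector control. This was the largest rise among the members, 6.41-fold (log2 difference 2.68, SE 0.41, adjusted p = 0.00218), and within 35S:WIN1 the values spanned more than 1 log2 unit. KCS20 (AT5G43760) had scaled signals of 3.89, 3.63, 3.66 and 3.60 in 35S:WIN1, against 2.94, 2.79, 3.08 and 3.32 in vector control. It rose 1.58-fold (log2 difference 0.66, SE 0.14, adjusted p = 0.00756). With 35S:WIN1 replicates 1 and 2 left out, the difference of KCS20 was 0.60 and just missed the threshold (adjusted p = 0.0533). KCS1 (AT1G01120), a broadly expressed condensing enzyme first described for wax, had scaled signals of 4.44, 4.19, 3.73 and 3.78 in 35S:WIN1, against 2.74, 3.07, 2.39 and 2.84 in vector control. It was 2.42-fold higher (log2 difference 1.28, SE 0.20, adjusted p = 0.00270). Near-identical copies were not separated by sequence here, so the signal of one KCS probe may include another KCS transcript.

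Among the condensing-enzyme genes, KCS16, KCS8, KCS19 and KCS17 fell. KCS16 (AT4G34250), described in the elongation of acyl chains in leaf trichomes, had scaled signals of -2.92, -2.68, -2.65 and -3.07 in 35S:WIN1, against 0.03, -0.33, 0.41 and 0.31 in vector control. It was 7.65-fold lower (log2 difference -2.93, SE 0.18, adjusted p = 4.28e-05), with a gap between the groups wider than the range of either. KCS8 (AT2G15090) had scaled signals of 0.90, 0.84, 1.52 and 1.87 in 35S:WIN1, against 3.15, 3.12, 3.36 and 3.37 in vector control. It was 3.91-fold lower (log2 difference -1.97, SE 0.23, adjusted p = 7.29e-04). KCS19 (AT5G04530) had scaled signals of -0.36, 0.34, 0.07 and 0.54 in 35S:WIN1, against 1.26, 1.19, 1.51 and 1.43 in vector control. Its difference was -1.20 (SE 0.19, adjusted p = 0.00279), and the groups did not overlap. KCS16, KCS8 and KCS19 passed as lower under all 21 alternative settings run.

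KCS17 (AT4G34510) was the fourth condensing-enzyme gene that fell. Its scaled signals were -5.53, -4.32, -4.76 and -4.17 in 35S:WIN1, against -3.32, -3.20, -3.84 and -4.02 in vector control. The groups lay close together at -4.17 and -4.02, and the difference of -1.10 (SE 0.32, adjusted p = 0.0296) became -0.24 under another background correction (normexp, adjusted p = 0.451). Its call was lost on leaving out 35S:WIN1 replicate 3, vector control replicate 1 or vector control replicate 2 (adjusted p = 0.0663, 0.0778 and 0.0772). KCS17 and FAE1, the condensing enzyme of seed oil, are adjacent genes on chromosome 4 in the reference table. FAE1 was at background on all 8 arrays.

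**Figure D2:**
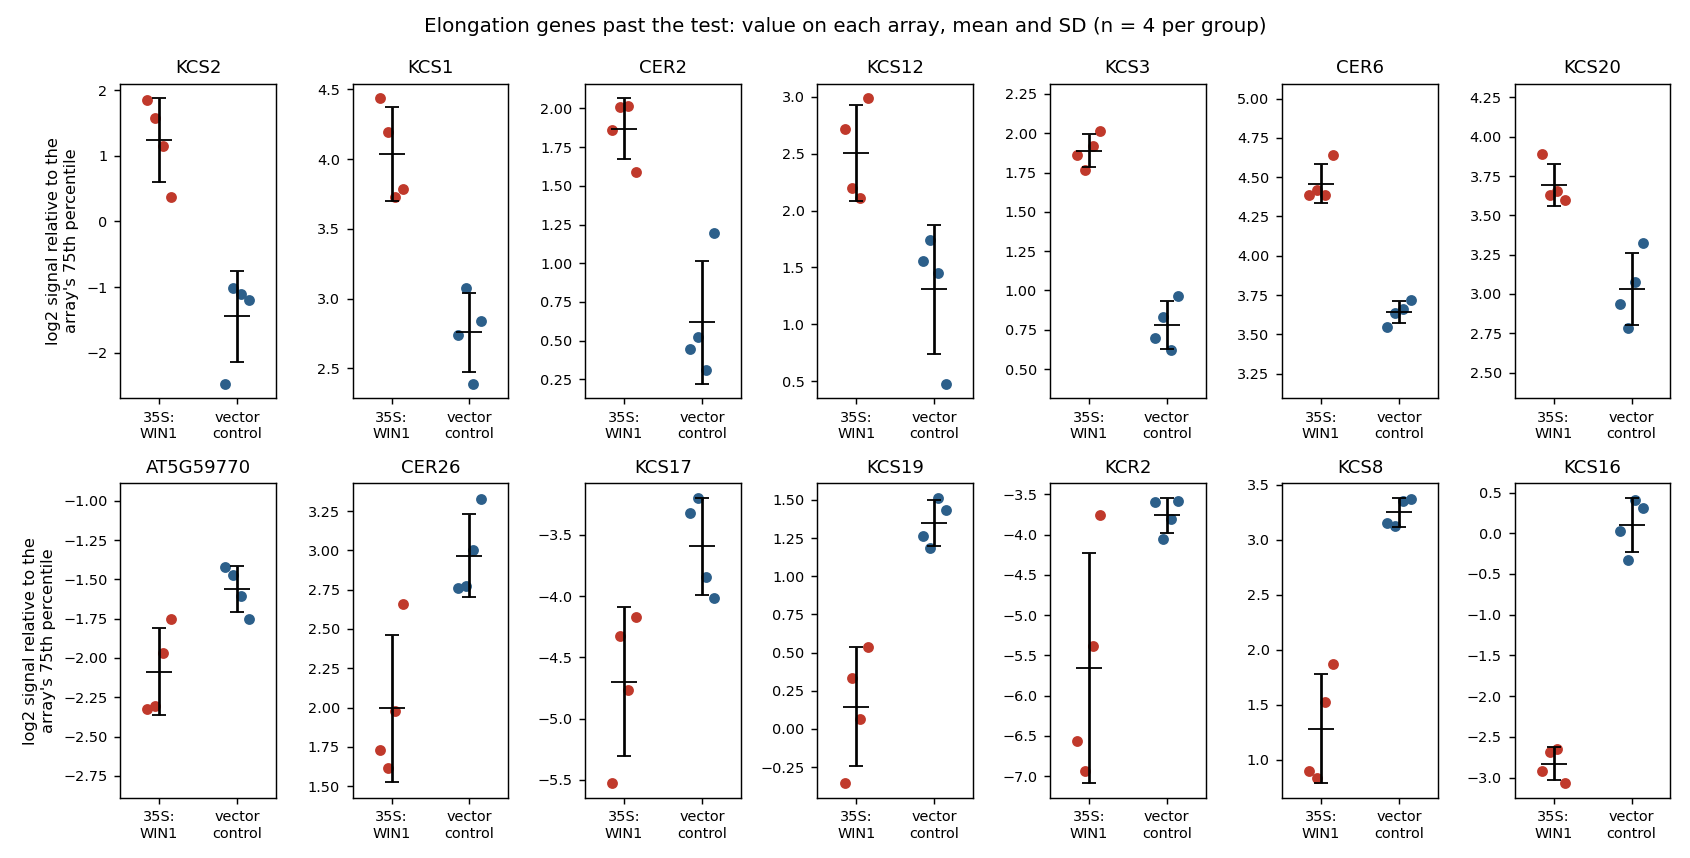
Scaled signal on each array for the 14 elongation genes that passed the test, ordered from the largest rise (KCS2) to the largest fall (KCS16), with 35S:WIN1 on the left and vector control on the right of each panel. Bars give the mean and SD of 4 arrays, and vertical axes differ between panels. The groups overlap for KCR2 and lie furthest apart for KCS16 and KCS2.

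Of the other condensing enzymes, KCS9 was decided by 1 array. KCS9 (AT2G16280) takes part in wax, suberin and sphingolipid synthesis, and its scaled signals were 2.03, 1.91, -4.82 and 2.20 in 35S:WIN1, against 2.82, 2.84, 2.33 and 2.73 in vector control. The spot on 35S:WIN1 replicate 3 had a processed signal of 80.4, where the other 7 arrays had 4079 to 15595, and it carried no outlier mark. With that array KCS9 did not pass (log2 difference -2.35, SE 1.47, adjusted p = 0.248). Without it KCS9 was lower by a smaller and steadier margin (log2 difference -0.63, SE 0.16, adjusted p = 0.0267).

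KCS11 ran from 1.27 to 1.61 in 35S:WIN1 and from 0.99 to 1.22 in vector control, so its groups did not overlap, but its difference of 0.31 (SE 0.11) did not pass (adjusted p = 0.0579). KCS4 ran from 0.49 to 1.65 in 35S:WIN1 and from 0.45 to 0.86 in vector control (log2 difference 0.43, adjusted p = 0.232). KCS13 (AT2G46720), also called HIC and known for its part in stomatal number under high carbon dioxide, and KCS14 were near the detection limit. KCS13 had scaled signals of -5.82, -5.47, -3.41 and -3.01 in 35S:WIN1, against -4.56, -4.19, -3.77 and -2.75 in vector control. KCS14 had scaled signals of -5.86, -6.01, -3.72 and -3.09 in 35S:WIN1, against -4.68, -4.32, -3.93 and -2.83 in vector control. The 2 genes kept close together from array to array, and in both groups their values were lowest on the dimmer arrays. Neither passed (adjusted p = 0.526 and 0.462).

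KCS7, KCS15 and KCS21, described in the making of the pollen coat in the anther, were at background here, as was FAE1. The lowest probe signals counted as well above background lay between -7.65 and -6.36 on the 8 arrays, and the 4 genes had values between -9.95 and -8.08. Of 7 anther markers, A9, AMS, MS1, DYT1, TDF1, CYP703A2 and ACOS5, none was above background on any array. Of 6 embryo and seed markers, the 5 for oleosins and storage proteins were at background on all arrays. LEC1, an embryo regulator, was detected above background in 4 of 4 samples of 35S:WIN1, against 1 of 4 of vector control (log2 difference 2.57, SE 0.29, adjusted p = 5.37e-04), or 4.85-fold higher with values raised to the detection floor.

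The shared steps of the cycle differed little where the gene is the one known to carry it. KCR1 (AT1G67730), the ketoacyl reductase of the elongase, had scaled signals of 2.81, 2.89, 2.88 and 2.95 in 35S:WIN1, against 2.94, 2.94, 2.84 and 2.97 in vector control. Its difference was -0.04 (SE 0.09, adjusted p = 0.756). CER10 (AT3G55360), the enoyl-CoA reductase, ran from 0.74 to 1.15 in 35S:WIN1 and from 0.82 to 1.01 in vector control (log2 difference 0.07, SE 0.12, adjusted p = 0.656). PAS2 (AT5G10480), the hydroxyacyl-CoA dehydratase, ran from 1.17 to 1.37 in 35S:WIN1 and from 0.92 to 1.35 in vector control (log2 difference 0.20, SE 0.12, adjusted p = 0.242). A p that misses the threshold does not show equal levels, but these 3 differences are small beside those of the condensing enzymes called.

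The second copies of 2 of these steps were lower. KCR2 (AT1G24470), which is not known to replace KCR1 in the elongase, had scaled signals of -6.56, -6.93, -5.38 and -3.76 in 35S:WIN1, against -3.60, -4.05, -3.81 and -3.58 in vector control. In 35S:WIN1 it was above background in 2 of 4 samples, and the groups overlapped. It was 3.48-fold lower where any value under the detection floor of its array was set to that floor. The call of KCR2 (log2 difference -1.90, SE 0.62, adjusted p = 0.0455) was lost on leaving out any single array other than 35S:WIN1 replicate 4. Under normexp its difference was -0.49 (adjusted p = 0.198). AT5G59770, the homolog of PAS2, had scaled signals of -2.33, -2.31, -1.97 and -1.75 in 35S:WIN1, against -1.42, -1.47, -1.61 and -1.75 in vector control. The groups met at -1.75, and the difference of -0.53 (SE 0.16, adjusted p = 0.0316) did not pass without 6 of the 8 single arrays, all but 35S:WIN1 replicate 4 and vector control replicate 4.

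The CER2 family split. CER2 (AT4G24510), a protein of the BAHD acyltransferase family that CER6 needs to make the longest wax precursors, had scaled signals of 1.86, 2.01, 2.01 and 1.59 in 35S:WIN1, against 0.44, 0.52, 0.31 and 1.20 in vector control. It was 2.38-fold higher (log2 difference 1.25, SE 0.21, adjusted p = 0.00293). CER26 (AT4G13840), its relative known from leaf wax, had scaled signals of 1.73, 1.62, 1.98 and 2.66 in 35S:WIN1, against 2.76, 2.77, 3.004 and 3.32 in vector control. It was 1.96-fold lower (log2 difference -0.97, SE 0.24, adjusted p = 0.0164). With 35S:WIN1 replicates 1 and 2, the dimmest arrays, left out, the difference of CER26 was -0.65 and did not pass (adjusted p = 0.115). CER26-LIKE (AT3G23840) had scaled signals of -0.33, -0.03, 0.65 and 0.56 in 35S:WIN1, against 0.83, 0.31, 1.30 and 2.12 in vector control, and did not pass (log2 difference -0.92, adjusted p = 0.100).

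Neither carboxylase gene passed. ACC1 (AT1G36160), the cytosolic acetyl-CoA carboxylase that supplies the malonyl-CoA of elongation, ran from 1.65 to 2.20 in 35S:WIN1 and from 1.501 to 1.89 in vector control (log2 difference 0.21, SE 0.15, adjusted p = 0.308). ACC2 (AT1G36180), its neighbour on chromosome 1 with a product sent to plastids, ran from -2.79 to -1.05 in 35S:WIN1 and from -1.83 to -1.20 in vector control (log2 difference -0.47, SE 0.34, adjusted p = 0.310).

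Ratios between related members on the same array show unequal change whatever single value an array is scaled by. They were not recomputed under another background correction. The 9 pairs were chosen after the members' values were seen, so their tests are not independent support. Each was compared by a two-sided exact permutation test of 4 arrays against 4, which cannot give a p below 0.0286. For 6 of the 9 pairs the groups did not overlap (exact p = 0.0286, Benjamini-Hochberg 0.0429 over the 9). Among single genes tested, 35.3% did not overlap. No such share was computed over other gene pairs, so the count describes these 9 pairs only. CER6 over KCS5 was higher by 0.56 on the log2 scale in 35S:WIN1, and KCS2 over KCS20 by 2.02. CER2 was higher by 2.22 over CER26 and by 2.18 over CER26-LIKE. KCS16 over KCS17 was lower, at -1.83, as was AT5G59770 over PAS2, at -0.72. KCR2 over KCR1 (-1.86, exact p = 0.0571), ACC2 over ACC1 (-0.68, exact p = 0.229) and KCS14 over KCS13 (-0.12, exact p = 0.429) overlapped between the groups. Relative to KCR1 on the same array, 8 of the other 26 members lay above the vector control arrays on all 4 arrays of 35S:WIN1, where 14.8% of all other genes tested did. Another 6 members lay below them, where 18.4% of all other genes did.

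**Figure D3:**
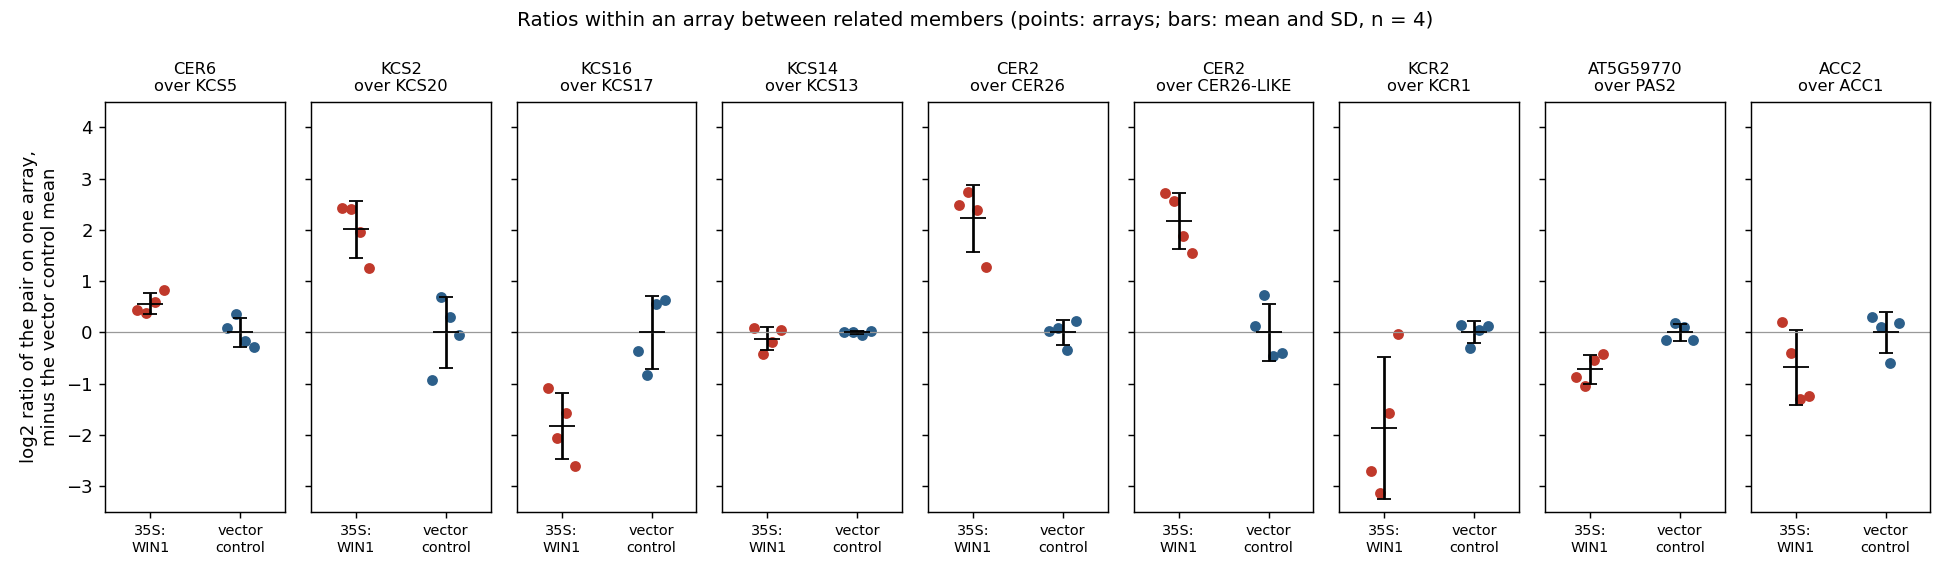
Log2 ratio of 2 related members on the same array, with the vector control mean of each pair set to 0, for 9 pairs (points are arrays, bars give mean and SD of 4). The 35S:WIN1 arrays lie apart from vector control for 6 pairs, above it for CER6 over KCS5, KCS2 over KCS20 and both CER2 ratios, and below it for KCS16 over KCS17 and AT5G59770 over PAS2.

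Genes of 2 pathways that draw on elongation were counted in a wax list and a suberin list. The chain lengths that each listed enzyme acts on were not examined. Of 8 wax enzyme and export genes tested of 9 listed, 2 were higher and 2 lower, with a median log2 difference of 0.34. These counts are near the shares of all genes, 15.1% higher and 20.2% lower. CER3, which acts with CER1 in alkane formation, rose by 0.78 (SE 0.21, adjusted p = 0.0242) and CER1-LIKE1 by 0.93 (SE 0.19, adjusted p = 0.00683). WSD1, the wax ester synthase, exceeded background in 1 of 4 samples of 35S:WIN1 and was lower (-2.64, adjusted p = 0.0139, or 2.45-fold with the floor), and the wax exporter ABCG12 was lower by a small margin (-0.40, adjusted p = 0.0192). Of 12 suberin enzyme and export genes, 10 were lower and none higher, with a median of -2.56. CYP86A1 and CYP86B1, hydroxylases of suberin monomers, had log2 differences of -4.18 and -3.99, ASFT, a feruloyl transferase, -1.95, and GPAT5, an acyltransferase, -3.33. KCS2 and KCS20, which are known to feed this polymer, rose in the same samples.

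Sphingolipids also take up very-long-chain acyl groups, and genes of ceramide and sphingolipid base synthesis were counted in the same way. This list includes the steps that make the base, and its enzymes were not sorted by chain length. None of 10 tested passed limma's adjusted threshold in either direction, and their differences ran from -0.63 for FAH1 (adjusted p = 0.0519) to 0.49 for LOH2 (adjusted p = 0.0969). At an unadjusted p under 0.05, 3 of the 10 differed, namely FAH1, LCB2b and LOH2, where 46.1% of all genes did. LCB2b had a log2 difference of 0.35 (adjusted p = 0.0543) and FAH2 one of -0.23 (adjusted p = 0.201).

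**Figure D4:**
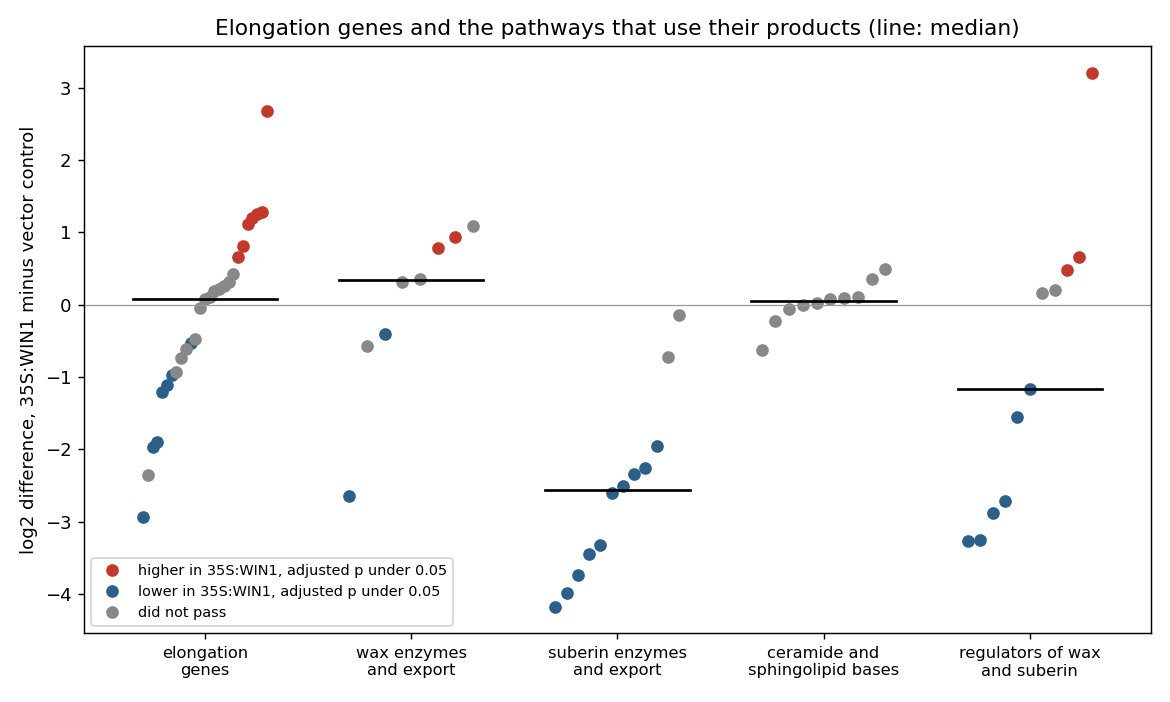
Log2 difference, 35S:WIN1 minus vector control, of each gene tested in the elongation set and in 4 lists. The lists hold genes of pathways that draw on elongation, not sorted by the chain lengths they use, and regulators of wax and suberin genes. Lines are list medians, at 0.07 for elongation, 0.34 for wax, -2.56 for suberin, 0.05 for ceramide and sphingolipid bases and -1.16 for regulators.

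Of 11 regulators of wax and suberin genes tested of 12 listed, 3 were higher and 6 lower, where 15.1% and 20.2% of all genes were. MYB96, an activator of wax genes that is known to raise several KCS transcripts, rose by 3.21 (SE 0.26, adjusted p = 1.36e-04). MYB93, a root regulator of the suberin group, was lower (-3.25, SE 0.24, adjusted p = 9.60e-05), and so was MYB16, an activator of cuticle genes (-1.55, SE 0.19, adjusted p = 7.51e-04). MYB9, another regulator of suberin genes, exceeded background in 0 of 4 samples of 35S:WIN1, against 4 of 4 of vector control. It was at least 3.04-fold lower (adjusted p = 0.00193). DEWAX, an ERF factor that represses CER1 and other wax genes, was lower by a log2 difference of -1.16 (adjusted p = 0.00531) and is named here with its value already known. CER1 itself overlapped between the groups and did not pass (log2 difference 1.09, SE 0.55, adjusted p = 0.161).

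Markers of the tissues that use elongated acyl chains moved as follows. The counts of these short lists stand beside 15.1% higher and 20.2% lower among all genes tested. Of 6 shoot epidermis markers, none was higher and 2 were lower, PDF1 at -1.06 and HDG2 at -0.53. Their summed signal, as log2 of the sum relative to the 75th percentile, was 4.38 to 4.93 in 35S:WIN1 and 4.27 to 4.72 in vector control. LTP1 and ATML1, the brightest of them, make up most of that sum, and the other 4 had negative differences. Of 7 endodermis markers tested of 8, 4 CASP genes of the Casparian strip were lower, by -0.85 to -1.88, and MYB36 was higher (0.85), with a summed signal of 2.51 to 2.95 in 35S:WIN1 and 2.76 to 3.21 in vector control. Of 6 root markers 2 were higher and none lower, with 5.63 to 6.37 in 35S:WIN1 and 4.98 to 5.51 in vector control. That sum is carried by 1 gene, PYK10, with a mean of 5.86 in 35S:WIN1 and 5.07 in vector control. Of 5 green tissue markers 4 were lower, with 7.80 to 8.21 in 35S:WIN1 and 8.11 to 8.40 in vector control. The part of these shifts in the elongation genes' differences was not tested.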

How the data were processed

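The 8 arrays, 1 per sample, were read out by Feature Extraction from Agilent, whose version the submitters' processing notes give as 9.1.3.1. The processed signal is a linear intensity, detrended across the array and background-subtracted per the file headers, and unscaled between arrays. The deposited value table holds the same intensity divided by 1340.6 for 35S:WIN1 and 1311.9 for vector control; it is thus neither logged nor centred. Its column medians were 0.0464, 0.0588, 0.114 and 0.125 for 35S:WIN1 and 0.0853, 0.111, 0.112 and 0.126 for vector control. Well-above-background and outlier marks are other values in the deposited files.

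Groups and replicate numbers came from the titles. Loci were read from the probes' systematic names, and the RefSeq gene list of TAIR10.1 held all 31 members; it served for names and gene order. No coordinates are given, since no build is named in the arrays' files. Spots with outlier marks were left out, no probe was saturated, and spots of one probe were averaged. Each gene was represented by its brightest probe and tested if that probe exceeded background well on at least 4 of 8 arrays. The difference, 35S:WIN1 minus vector control, was fitted over 20442 genes by lmFit and eBayes of limma 3.58.1, run under R 4.3.3 with data.table (version 1.17.8) for reading, two-sided, with Benjamini-Hochberg adjustment. The fit was tested on simulated data. A fold written as at least N sets the dimmer group at each array's detection floor, the lowest signal well above background. The number of arrays limits the precision.

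Members, lists and alternatives were chosen with earlier results of these data known. Every member is named, with WIN1 and up to 4 genes of smallest p from each list, beside markers and a few genes said to be picked later. Replicate numbers do not pair the samples. Alternatives were other normalizations, spike-in scaling, normexp background correction on median spot signals (offset 50, mean signals not being in the files used), the deposited values, other filters, array weights, a replicate block and leaving out arrays. Promoter and protein sequences, which the plan would have described, were not used here. The slide could not be a block, since each holds 1 group.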

Additional observations from a re-analysis of the deposited data

Results flagged for a closer look

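In 54 groups of 4 arrays, 27 members in 2 groups each, 3 arrays lay far from the other 3, judged by the gap to the nearest array as a share of the group's range, and chance flags about 1 group in 20. KCS9 on 35S:WIN1 replicate 3 stood at -4.82, with the nearest array at 1.91, a gap of 0.958 of the range. CER6 on 35S:WIN1 replicate 4 stood at 4.64, with the nearest at 4.42 (0.878 of the range), and KCS2 on vector control replicate 1 at -2.47, with the nearest at -1.19 (0.873 of the range).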

How the results depend on the processing

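The 75th-percentile fit called 7 members higher and 7 lower (3078 and 4138 of all genes). On the spike-in scale 0 were higher and 20 lower (402 and 17185 of all genes), and CER6, KCS1, KCS3, KCS12, KCS20 and CER2 turned to -0.82, -0.36, -0.53, -0.44, -0.97 and -0.39, none of them past the threshold. KCS5, KCS10, KCS4, KCS11, PAS2, CER10 and ACC1, not called before, became lower at -1.38, -1.53, -1.21, -1.33, -1.44, -1.56 and -1.43. KCR1 (-1.68), KCS9, KCS13, KCS14, CER26-LIKE and ACC2, also not called before, were called lower on that scale too. This follows from the construction of that scale, a shift shared by all genes. On the deposited values 1 member was higher and 5 lower (905 and 2088 of all genes). Without 35S:WIN1 replicates 1 and 2, 5 members were higher and 4 lower (1951 and 2367 of all genes). Under normexp 7 members were higher and 4 lower (2882 and 3140 of all genes). Leaving out single arrays gave 4 to 7 members lower, with 4 without vector control replicate 1, and 6 to 9 higher (2983 to 4628 and 2273 to 3707 of all genes). The causes were not tested. KCS16, KCS8 and KCS19 stayed called under all 21 settings run, while KCR2 passed under 10 of its 20 and AT5G59770 under 11 of 21. With the replicate number as a block, 6 members were higher and 6 lower (2584 and 3465 of all genes). KCS12, KCS17 and AT5G59770 lost their calls (adjusted p = 0.0621, 0.0619 and 0.0897) and CER26-LIKE gained one (0.0354). Same-numbered samples deviated together at r = -0.04 to 0.14, and 1 of 4 matched its own number best. A slide block was not run, since each slide holds 1 group. Values raised to the detection floor, a setting chosen after seeing the data, gave 7 and 7. Signal near background limits KCR2, KCS13, KCS14 and KCS17.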
